A study of Mus musculus with 8 samples.

Results

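*C7*, *Ptchd1* and *Edil3* are 3 genes whose level was far higher in Lewis lung carcinoma (LLC) tumors of *Ccrl2* KO mice than in LLC tumors of WT mice. They were chosen by these values, out of the 47729 genes of the table, of which 14706 were tested. RNA of whole subcutaneous tumors was sequenced in 4 groups of 2 libraries, with 3 tumors pooled per library. The tumors grew from B16-F0 melanoma cells or LLC cells, 2 mouse lines syngeneic with C57BL/6 mice, grafted in the back of hosts that were WT or lacked *Ccrl2*, an atypical receptor that binds the chemoattractant chemerin. The hosts are C57BL/6 by the labels and C57BL/6J by the methods of the study. *Ccrl2* was intact in the grafted cells, and KO and WT name the host alone (B16 WT, B16 KO, LLC WT and LLC KO). The labels give 5 days of growth for all groups, while a legend of the study gives a shorter time for B16. Mice were 6 to 12 weeks old unless stated otherwise in the study, and their sex and whether both genotypes were littermates are not given in the sources used here.

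*C7* encodes the component of the complement cascade that joins the complex of C5b and C6 at a membrane. It gives this complex its hold on lipids, after which C8 and C9 complete the pore, while CD59, clusterin and vitronectin restrain it. *Ptchd1* encodes a membrane protein of the patched family with a sterol-sensing domain, expressed mainly in brain, and its human counterpart is linked to X-linked intellectual disability. *Edil3*, also called Del-1, encodes a secreted matrix protein of endothelial and other cells. It binds integrins through an arginine-glycine-aspartate (RGD) motif and restrains the adhesion of leukocytes.

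In GRCm38, *C7* lies on chromosome 15 (4988762 to 5063740, minus strand), *Ptchd1* on the X chromosome (155573455 to 155623814, minus strand) and *Edil3* on chromosome 13 (88821472 to 89323223, plus strand). Of the 3 members, 2 matched the RefSeq promoter table (GRCm38.p6). Their 250 bases before the start are shown because both genes had the same pattern over the libraries, from sequences of opposite composition. For *Edil3*, 63 bases of its coding exon 3 in GENCODE M21 are shown, since its integrin partners are described further on. Capitals mark TATAAA read on the other strand for *C7*, both GCGTG matches for *Ptchd1* and the RGD codons for *Edil3*.
C7, chr15:5063774-5064023, minus strand: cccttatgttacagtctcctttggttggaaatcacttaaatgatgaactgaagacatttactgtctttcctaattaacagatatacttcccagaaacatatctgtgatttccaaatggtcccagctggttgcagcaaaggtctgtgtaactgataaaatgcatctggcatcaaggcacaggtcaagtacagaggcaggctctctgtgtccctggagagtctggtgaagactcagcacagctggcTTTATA
Ptchd1, chrX:155623328-155623577, minus strand: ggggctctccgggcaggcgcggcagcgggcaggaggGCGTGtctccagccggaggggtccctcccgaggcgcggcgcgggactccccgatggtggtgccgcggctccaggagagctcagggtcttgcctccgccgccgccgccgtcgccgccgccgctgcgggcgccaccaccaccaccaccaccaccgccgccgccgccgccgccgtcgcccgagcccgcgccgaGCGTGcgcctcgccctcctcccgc
Edil3, chr13:89042464-89042526, plus strand: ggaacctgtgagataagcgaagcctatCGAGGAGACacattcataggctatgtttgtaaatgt

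The *C7* window held 0 CpG and had a GC content of 43.2%, whereas the *Ptchd1* window held 41 CpG and had a GC content of 81.6%. The median of 32851 windows of the same length was 6 CpG, and 98.9% of them held fewer CpG than *Ptchd1*. Both strands were searched for 5 motifs. The hypoxia-inducible factor core GCGTG was found 2 times before *Ptchd1*, at 214 and 24 bases from the start, and is present in 28.2% of all windows. TATAAA was found 1 time before *C7*, next to the start, and is present in 12.4% of windows. The other core of the hypoxia-inducible factors, ACGTG, which 16.6% of windows hold, was found before neither gene. The same was true of the GLI core CCACCCA, held by 8.11% of windows, and of the AP-1 site TGANTCA, held by 6.75%. No match overlapped another.

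The estimated depth was 17.6 to 30.8 M reads on genes per library, and levels are given in reads per M mapped to genes (RPM), on which scale 3 reads correspond to 0.0973 to 0.170. The label of the tumors held by the sums of 2 lists. The 4 keratins of the LLC epithelial list summed to 278 to 472 RPM in LLC against 8.70 to 12.5 RPM in B16. Of these, *Krt7* went the other way, at 7.25 to 10.95 RPM in B16 and 0.30 RPM or less in LLC. Melanocyte genes summed to 14288 RPM or more in B16 against at most 1.20 RPM in LLC. *Ccrl2* itself was read at 9.40 and 5.25 RPM in LLC WT and at 11.4 and 5.15 RPM in LLC KO, and in B16 at 4.25 and 3.80 RPM with WT hosts and 3.55 and 3.10 RPM with KO hosts, which does not check the host genotype because the grafted cells keep the gene. The LLC KO libraries stood apart in sex-linked genes. *Ddx3y*, *Eif2s3y*, *Kdm5d* and *Uty*, all Y-linked, were at 0 in 6 libraries and at 5.95 to 34.9 RPM in both LLC KO libraries, and *Xist* was at 632 and 710 RPM there against 323 and 296 RPM in LLC WT and 55.6 to 90.2 RPM in B16. The sex of the hosts or of the cells read, and any difference between the LLC cells grafted in KO and WT mice, therefore cannot be told apart from the host genotype in every LLC result below. In bulk tumors, fewer cells of a type and less RNA per cell cannot be told apart either.

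*C7* was close to absent outside LLC KO tumors. It was read at 0.15 and 0.10 RPM in LLC WT and at 9.6 and 10 RPM in LLC KO. In B16 it was at 0 and 0.10 RPM with WT hosts and at 0.10 and 0.05 RPM with KO hosts. Both LLC KO libraries lay above all 6 others, and every B16 value was at or under the level of 3 reads. The mean level in LLC KO was 9.80 ± 0.28 RPM (SD, n = 2) against 0.13 ± 0.035 RPM in LLC WT (n = 2), which corresponds to about 369 reads against 6. The ratio of these reads per M was 96.7, with a 95% exact interval of 44.0 to 265 for counting error only. On the log2(RPM + 0.5) scale, which understates the change of low genes, the difference was 4.04 (SE 0.18).

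*Ptchd1* followed *C7* closely. It was read at 0.15 and 0.20 RPM in LLC WT and at 10.2 and 8.75 RPM in LLC KO. In B16 it was at 0.10 and 0.05 RPM with WT hosts and at 0.05 RPM in both libraries with KO hosts. Here too both LLC KO libraries lay above all others and B16 stayed at or under 3 reads. The mean level was 9.50 ± 1.06 RPM (SD, n = 2) in LLC KO and 0.18 ± 0.035 RPM (n = 2) in LLC WT, about 360 reads against 9, for a ratio of 62.9 (95% exact interval 32.8 to 139, counting error only). The difference on the log2(RPM + 0.5) scale was 3.89 (SE 0.17). *C7* and *Ptchd1* reached 1 RPM in 2 of the 8 libraries, so that both passed the filter on low values through the LLC KO group alone.

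*Edil3* had another pattern. It was read at 2.60 and 2.05 RPM in LLC WT and at 34.2 and 29.4 RPM in LLC KO, but also at 17.2 and 23.2 RPM in B16 WT and at 19.9 and 33.05 RPM in B16 KO. The group that stood apart was LLC WT, the lowest, whereas the LLC KO values overlapped those of B16 KO. A gain restricted to LLC KO tumors therefore describes *C7* and *Ptchd1* but not *Edil3*. Its mean was 31.8 ± 3.43 RPM (SD, n = 2) in LLC KO and 2.33 ± 0.39 RPM (n = 2) in LLC WT, about 1205 reads against 137, for a ratio of 13.8 (95% exact interval 11.6 to 16.6, counting error only) and a difference of 3.52 (SE 0.25) on the log2(RPM + 0.5) scale. By mean level the order was LLC KO, B16 KO (26.5 ± 9.30 RPM), B16 WT (20.2 ± 4.21 RPM) and LLC WT, and the libraries of B16 KO overlapped those of both its neighbours in that order.

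**Figure D1:**
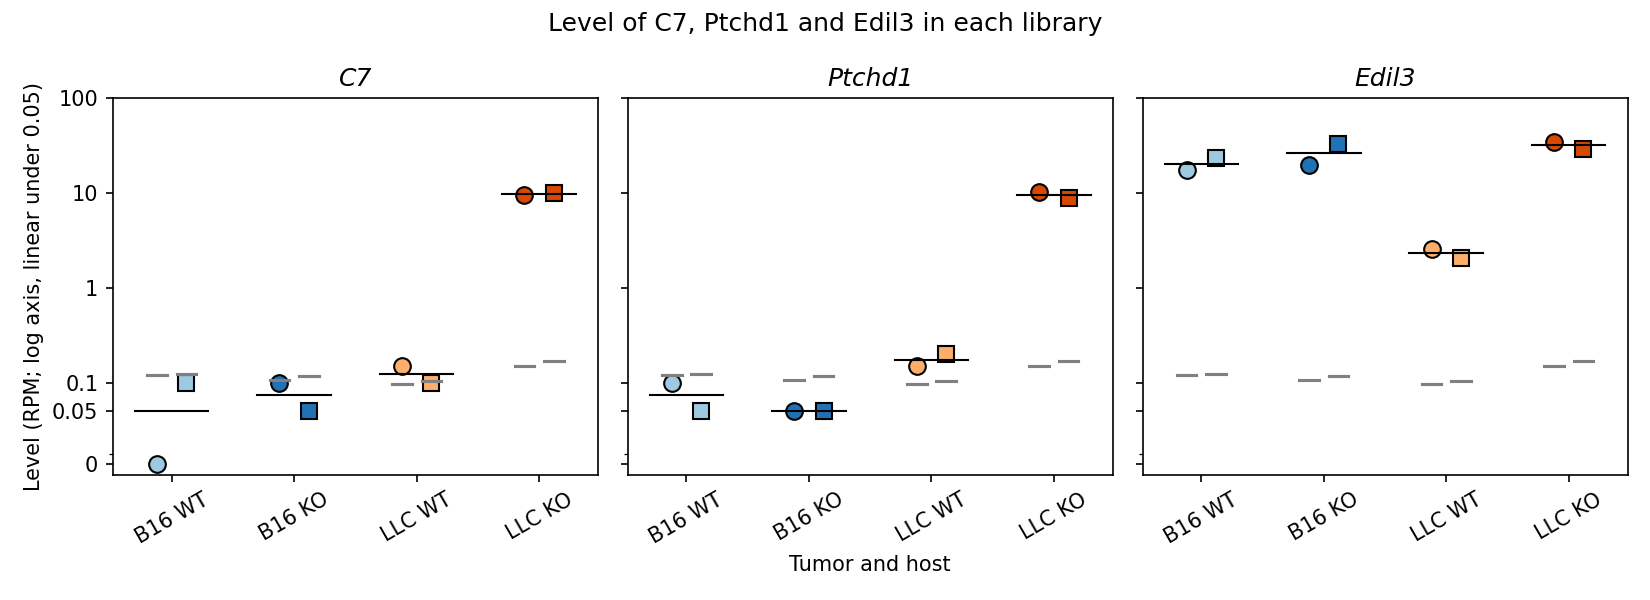
Level of C7, Ptchd1 and Edil3 (RPM, log axis that is linear under 0.05) in the 4 groups. Circles are replicate 1, squares replicate 2, black lines group means and grey dashes the level of 3 reads in each library. C7 and Ptchd1 are at 8.75 RPM or more in LLC KO and at 0.20 RPM or less elsewhere, while Edil3 is low in LLC WT.

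The LLC contrast chose the members, so the differences above were not tested. Over all genes tested, both LLC KO libraries lay above the 6 others for 16.7%, a pattern shared by *C7* and *Ptchd1*, and both LLC WT libraries lay below the 6 others for 10.8%, as for *Edil3*. With adjusted p under 0.05 (limma, Benjamini-Hochberg over all genes), 15.1% of genes were called higher and 23.1% lower in LLC KO. Calls in the higher direction made up 39.6% of these, and 54.6% or 53.7% when libraries were scaled by the trimmed mean of M values or the median of ratios. By size of the difference, *C7* ranked 3, *Ptchd1* 5 and *Edil3* 10 among all genes. *Eif2s3y* stood above *C7*, *Uty* between *C7* and *Ptchd1*, and *Kdm5d* below *Ptchd1*, all 3 at 0 in LLC WT. Predicted genes left aside, just above *Edil3* was *Tnr*, a matrix glycoprotein of the nervous system, at 0.40 and 0.95 RPM in LLC WT and 13.2 and 15.4 RPM in LLC KO. Just below it was *Col4a5*, a basement membrane collagen chain on the X chromosome, at 4.35 and 11.7 RPM in LLC WT and 90 and 67.4 RPM in LLC KO. With a pseudocount of 2 RPM instead of 0.5 the ranks were 13, 17 and 6.

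In B16 tumors, the host effect on *Edil3* was tested and was not called. The difference of KO over WT was 0.35 on the log2 scale (SE 0.25, 95% interval -0.23 to 0.93, adjusted p = 0.66, limma), and the libraries overlapped. It was -0.0078 without B16 KO replicate 2. B16 WT replicate 1 stood apart in skeletal muscle markers, which summed to 650 RPM there against 0.60 to 2.30 RPM in the 7 other libraries, and without it the difference was 0.14 (adjusted p = 0.94). For *C7* and *Ptchd1* no fold is given in B16, since both groups were at or under the level of 3 reads. From so few reads with WT hosts, a fall could not have been called there. A rise to the level of LLC KO could have been seen, but B16 KO stayed at 0.10 RPM or less for *C7* and at 0.05 RPM for *Ptchd1*. Of all genes tested, 0.0% were called higher and 0.0% lower in B16 by limma, with 1442 genes at an unadjusted p under 0.05 and a smallest adjusted p of 0.20.

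The LLC KO pools differed in markers of some stromal cells but little in the members. From replicate 1 to replicate 2 the level of *C7* was 1.04 times as high, that of *Ptchd1* 0.85 times and that of *Edil3* 0.86 times. The endothelial *Cdh5* was at 1.00 and 11.6 RPM in the same pools, the pericyte gene *Rgs5* at 0.15 and 39.8 RPM, the adipocyte gene *Adipoq* at 0.10 and 8.90 RPM and the erythroid gene *Hbb-bs* at 17.1 and 167 RPM. *Ddx3y* was at 31 and 34.9 RPM, 1.13 times as high in replicate 2. The fibroblast list, the largest stromal sum, was nearly equal in both pools, at 22540 and 21571 RPM. Most of this sum was *Col3a1* (14772 and 13397 RPM). In LLC WT the fibroblast list was at 24603 and 46215 RPM. The lymphatic endothelial list was at 261 and 251 RPM, nearly all of it *Lyve1* (127 and 120 RPM) and *Pdpn* (134 and 130 RPM). From the same list, *Flt4* was at 0.05 and 1.00 RPM in these pools and *Prox1* at 0 and 0.05 RPM. Against LLC WT, *Lyve1* was called higher and *Flt4* lower. Of 10 fibroblast markers, 4 were called lower in LLC KO (*Col1a1*, *Col1a2*, *Thy1* and *Fap*), while *Dcn* and *Dpt* had higher values that did not pass (adjusted p of 0.061 for both). As whole lists, 6 of 7 blood endothelial, 5 of 8 mural and 5 of 6 T cell markers (5 tested) were called lower in LLC KO, against 23.1% of all genes. In LLC KO they summed to 15.8 to 68.4, 27.2 to 119 and 2.75 to 4.60 RPM against 196 to 231, 240 to 304 and 13.5 to 15.2 RPM in LLC WT. In B16, where no marker was called, the blood endothelial sum was 101 to 144 RPM with WT hosts and 38.9 to 45.7 RPM with KO hosts, the mural sum 214 to 222 and 137 to 148 RPM, and the T cell sum 10.7 to 14.1 and 12 to 13.7 RPM.

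Other lists were higher with the members. Of the mast cell markers, 6 of 7 were called higher, against 15.1% of all genes, and their sum was 122 and 316 RPM in LLC KO against 81.3 and 35.5 RPM in LLC WT. All 10 genes of the hypoxia response list were called higher, from a sum of 1785 and 1629 RPM in LLC WT to 4566 to 4855 RPM in LLC KO, while B16 tumors were at 5100 to 6062 RPM. The LLC epithelial genes summed to 278 to 310 RPM in LLC WT and to 410 to 472 RPM in LLC KO, with 1 of 4 called. Neuron markers, relevant to *Ptchd1* and *Tnr*, summed to 6.00 to 9.65 RPM with WT hosts and to 4.25 to 5.25 RPM with KO hosts. Of these 6 markers, 3 were tested and 1 was called lower. The part of these cells and programs in the levels of the members was not tested.

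The genes with the most similar profile over the 8 libraries are described for each member. These profiles hold the LLC values that chose the members, so likeness to them is no further support. Any genes near 0 in 6 libraries and on in both LLC KO libraries correlate closely by that profile alone. The Pearson correlation of log2(RPM + 0.5), a description over libraries that fall in 4 groups, was 0.996 between *C7* and *Ptchd1*, but 0.42 between *C7* and *Edil3* and 0.40 between *Ptchd1* and *Edil3*. The 5 genes most like *C7* were *Ddx3y*, *Kdm5d*, *Eif2s3y*, *Ptchd1* and *Uty* (r of 0.996 to 0.998), and those most like *Ptchd1* included *Eif2s3y*, *Ddx3y*, *C7* and *Kdm5d* (0.996 to 0.998). The Y-linked genes make up 4 of the first list and 3 of the second. Over the whole table, 11 genes were at 0.2 RPM or less in the 6 other libraries and at 1 RPM or more in both LLC KO libraries, a limit chosen after the values were seen. Beside *C7*, *Ptchd1* and the 4 Y-linked genes, they included the estrogen sulfotransferase gene *Sult1e1*, *2610528A11Rik* and *Gm44261*, and *C7* and *Ptchd1* were the highest of those not on the Y chromosome.

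The genes most like *Edil3* were *Plod2*, which encodes a lysyl hydroxylase of collagen, *Jmy*, *Vamp7*, *Sun1* and *Stag2* (r of 0.988 to 0.997). With WT hosts *Plod2* was at 214 and 203 RPM in LLC, against 487 and 494 RPM with KO hosts and 397 to 496 RPM in B16. Like *Edil3*, it was lowest in LLC WT, with LLC KO among or close to the B16 values. The difference in LLC was smaller for all 5, from 0.75 for *Stag2* to 1.23 for *Plod2* on the log2 scale, than for *Edil3*.

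**Figure D2:**
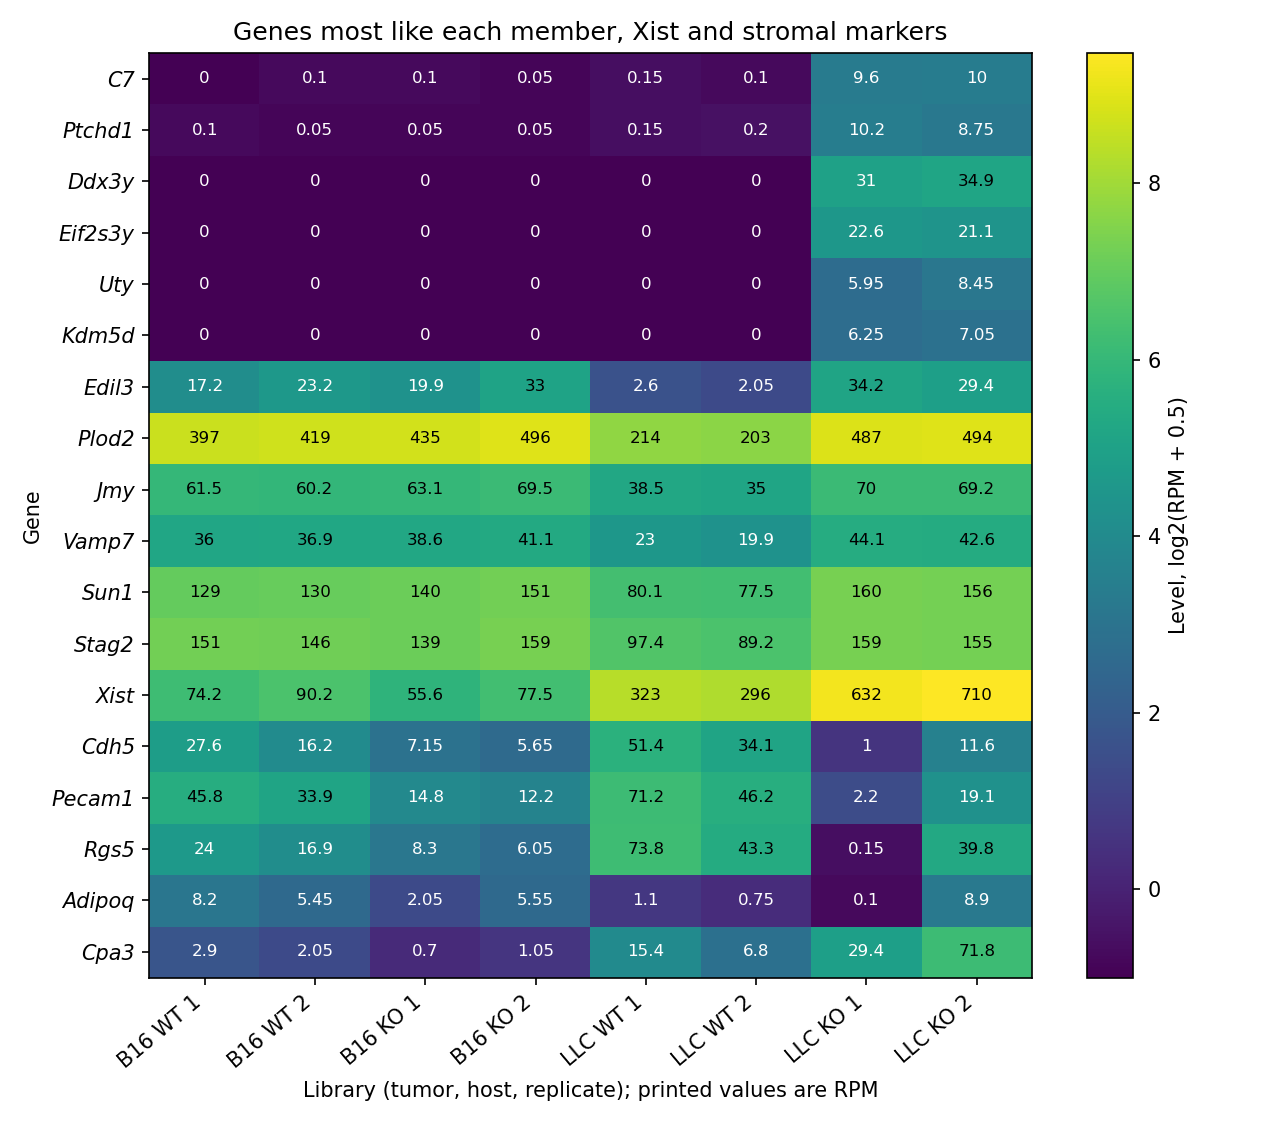
Levels of the members, genes most like them, Xist and stromal markers in the 8 libraries. Color gives log2(RPM + 0.5) and the printed values are RPM. C7 and Ptchd1 share the on-off profile of the Y-linked genes, Edil3 that of Plod2, and Cdh5, Rgs5 and Adipoq differ between the LLC KO pools.

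Genes beside the members did not share the size of their differences. Of 18 neighbours, the 3 nearest tested genes on each side, 7 were called higher and 1 lower in LLC KO, against 15.1% and 23.1% of all genes. *C6*, whose product precedes C7 in the cascade, lies 174 kb away and was at 4.65 and 3.90 RPM in LLC WT and at 7.15 and 16.2 RPM in LLC KO. All LLC KO values were above LLC WT, but the difference of 1.25 (SE 0.43) did not pass (adjusted p = 0.053, limma), whereas it did with scaling by the trimmed mean of M values (0.046) or the median of ratios (0.045). *AW549877*, 993 kb away on the same side as *C6*, was at 48.1 and 47.4 RPM in LLC WT and at 74.3 and 74.35 RPM in LLC KO, and rose by 0.63 (adjusted p = 0.0017), a call kept under all 17 alternatives. *Card6*, 32.2 kb away on the other side, fell by 0.56 (adjusted p = 0.038), a call lost without any one of the LLC libraries (adjusted p of 0.071 to 0.13) or of the B16 WT libraries (0.053 for both), and under both scalings (0.068 and 0.071). *Rpl37*, 52.9 kb away, was at 487 to 606 RPM in LLC and was not called (adjusted p = 0.27).

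Around *Ptchd1*, the largest difference was that of *Phex*, 1538 kb away, which encodes an endopeptidase of bone-forming cells that regulates phosphate. *Phex* was at 7.60 and 4.65 RPM in LLC WT, at 33.1 and 35.4 RPM in LLC KO and at 0.10 RPM or less in B16, and rose by 2.43 on the log2 scale in LLC KO (SE 0.24, adjusted p = 0.00086, limma). *Prdx4*, a peroxiredoxin gene 233 kb away, rose by 0.50 (adjusted p = 0.0026). *Sms*, the spermine synthase gene, rose by 0.41 (adjusted p = 0.035), a call lost without either LLC KO library (0.15 and 0.099), LLC WT replicate 2 (0.11) or either B16 WT library (0.061 for both). *Acot9*, *Gm8606* and *Gm15163* were not called. Of the 496 X-linked genes tested, 19.6% were called higher in LLC KO, against 15.1% of all genes tested. The range over the 19 autosomes was 11.1 to 23.7%, and only chromosomes 3 (19.9%) and 12 (23.7%) were above the X chromosome. An antisense gene overlaps the first part of *Ptchd1* (*Gm15156*) and was at 0.10 RPM or less in all libraries.

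Around *Edil3*, *Vcan*, which encodes the matrix proteoglycan versican 332 kb away, was at 256 and 282 RPM in LLC WT and at 574 and 532 RPM in LLC KO. It rose by 1.04 (SE 0.13, adjusted p = 0.0016, limma), as did the overlapping *Gm4117* by 1.30 (adjusted p = 0.0036), whose reads may not be told apart from those of *Vcan*. *Hapln1*, the closest tested gene at 217 kb, was at 30.6 to 36.8 RPM in B16 and at 0.05 RPM or less in LLC. On the other side *Rasa1* rose by 0.41 (adjusted p = 0.0073; 0.053 without LLC KO replicate 1), and *Cox7c* and *Ccnh* were not called.

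**Figure D3:**
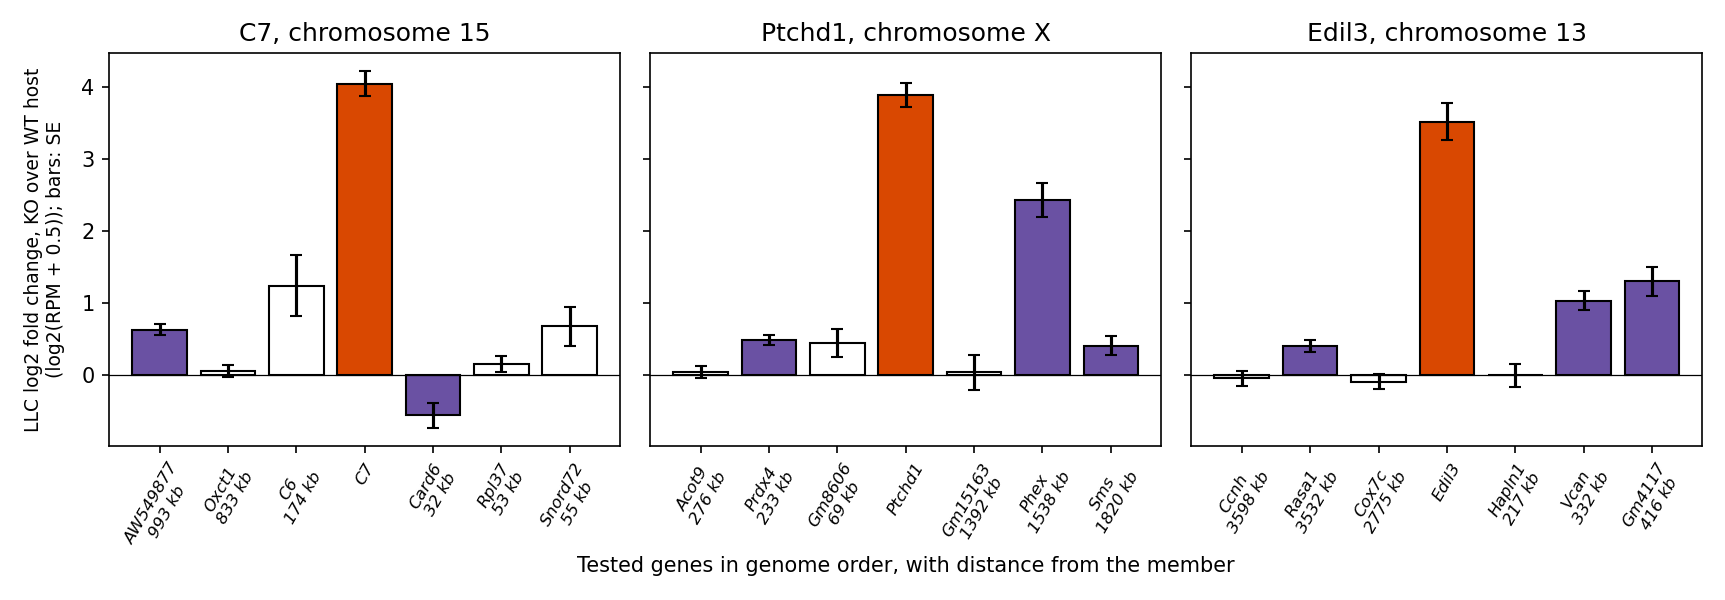
Difference in LLC (KO over WT host, log2(RPM + 0.5), bars are SE) of each member (orange, not tested) and its 3 nearest tested genes on each side, with their distance. Purple bars have an adjusted p under 0.05 and white bars do not. Each member exceeds its neighbours, of which Phex is the highest at 2.43.

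The other genes of the pathways of the members were described by 5 lists of 58 genes, 45 of them tested. In LLC, 7 (15.6%) were called higher and 10 (22.2%) lower, shares close to the 15.1% and 23.1% of all genes tested, and in B16 0 in either direction. Of these 17 calls, 8 held without each of the 8 libraries in turn. The median difference of all genes tested was -0.095 in LLC and -0.051 in B16.

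Among the genes of terminal complement and its inhibitors, 6 of 10 were tested, 1 was called higher and 1 lower, and the median was 0.20 in LLC and -0.43 in B16. *Clu*, the inhibitor clusterin, was at 23.2 and 22.8 RPM in LLC WT and at 77.5 and 72.7 RPM in LLC KO. Its LLC KO libraries lay well above all others, and it rose by 1.69 (SE 0.26, adjusted p = 0.0033, limma). *Hc*, which encodes C5, was at 2.20 and 1.25 RPM in LLC WT and at 0.10 RPM in both LLC KO libraries, at or under 3 reads, and was called lower (adjusted p = 0.0022). Of the pore components downstream of C7, *C8a* and *C8b* were at 0 in all libraries and *C9* was at 0.15 RPM or less. *C8g* was at 3.25 to 4.80 RPM in B16, at 1.55 RPM in both LLC WT and at 1.85 and 1.55 RPM in LLC KO, and was called in neither tumor. The membrane inhibitor gene *Cd59a* was at 2.75 and 2.55 RPM in LLC WT and at 3.40 RPM in both LLC KO and was not called.

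Of the 18 genes of upstream complement, 16 were tested, 1 was called higher and 2 lower, with a median of -0.34 in LLC and -0.33 in B16. *Masp1*, a protease of the lectin pathway, rose by 0.86 (adjusted p = 0.013; 0.083 without LLC KO replicate 1). *C1ra*, a protease of the C1 complex, fell by 0.66 (adjusted p = 0.011; 0.071 without LLC KO replicate 1). *Cr1l*, a membrane regulator, fell by 0.33 (adjusted p = 0.015), a call lost under both scalings (0.060 and 0.055) and without LLC KO replicate 1 (0.094). *C3*, on which all pathways converge, was at 636 and 580 RPM in LLC WT and at 347 and 526 RPM in LLC KO and did not pass (adjusted p = 0.13), and the C1q genes *C1qa*, *C1qb* and *C1qc*, expressed by macrophages, had adjusted p of 0.91 to 0.95.

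Of the patched family and other proteins with a sterol-sensing domain, 10 of the 11 listed genes were in the table, 7 were tested, 0 were called higher and 3 lower, with a median of -0.49 in LLC and 0.0058 in B16. The closest relatives of *Ptchd1*, *Ptchd3* and *Ptchd4*, were at 0.40 RPM or less in all libraries. *Disp2*, of the dispatched proteins, was at 36.7 and 24.9 RPM in LLC WT and at 10.2 and 7.75 RPM in LLC KO, and fell by 1.71 (SE 0.24, adjusted p = 0.0026, limma). *Scap*, the sterol sensor that escorts SREBP proteins, fell by 0.64 (adjusted p = 0.0021). The hedgehog receptor gene *Ptch1* was at 26.4 and 24.4 RPM in LLC WT and at 31.1 and 29.1 RPM in LLC KO and did not pass (adjusted p = 0.092; 0.031 and 0.039 under the 2 other scalings).

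Of the 12 hedgehog pathway genes, 9 were tested, 4 were called higher and 1 lower, with a median of 0.39 in LLC and -0.12 in B16. *Cdon*, a coreceptor of hedgehog ligands, was at 46.5 and 68.5 RPM in LLC WT and at 201 and 179 RPM in LLC KO. It rose by 1.74 (SE 0.19, adjusted p = 0.0012, limma), and its relative *Boc* by 0.81 (adjusted p = 0.0032; 0.054 with each tumor fitted alone). The transcription factor genes *Gli2* and *Gli3* rose by 0.62 (adjusted p = 0.036) and 0.39 (0.031). Without LLC KO replicate 1 their adjusted p were 0.12 and 0.18, and without LLC WT replicate 2 they were 0.13 and 0.11. The call of *Gli2* was also lost without LLC KO replicate 2 (0.12), B16 KO replicate 1 (0.0505) or B16 KO replicate 2 (0.0502), and that of *Gli3* without either B16 WT library (0.057 for both). *Dhh*, the desert hedgehog ligand, was at 1.25 and 1.10 RPM in LLC WT and at 0.65 and 0.40 RPM in LLC KO and fell by 0.72 (adjusted p = 0.019; 0.097 without LLC KO replicate 2 and 0.057 without LLC WT replicate 1). *Shh* and *Ihh* were at 0.15 RPM or less in all libraries, and *Gli1*, a target gene of the pathway, was at 0.80 and 1.20 RPM in LLC WT and at 1.80 and 1.55 RPM in LLC KO and was not called (adjusted p = 0.20).

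All 7 genes of the list of the EDIL3 relative MFG-E8 and the integrins were tested, 1 was called higher and 3 lower, with a median of -0.38 in LLC and 0.019 in B16. *Itgav*, the alpha chain that pairs with the products of *Itgb3* and *Itgb5* to bind RGD, was at 131 and 116 RPM in LLC WT and at 252 and 242 RPM in LLC KO, and rose by 1.00 (SE 0.078, adjusted p = 0.00037, limma). Like *Edil3* it was lowest in LLC WT, with B16 at 294 to 316 RPM. *Itgb3* was at 58.1 and 103 RPM in LLC WT and at 32.8 and 28.8 RPM in LLC KO, and fell by 1.32 (SE 0.23, adjusted p = 0.0051; 0.056 with each tumor fitted alone). *Itgal*, the leukocyte integrin chain of LFA-1, was at 17.6 and 16.9 RPM in LLC WT and at 3.25 and 10.2 RPM in LLC KO, and fell by 1.49 (adjusted p = 0.028), a call lost without LLC KO replicate 1 (0.063), LLC WT replicate 1 (0.074) or LLC WT replicate 2 (0.070). *Mfge8* fell by 0.38 (adjusted p = 0.018), a call lost under both scalings (0.065 and 0.056) and without LLC KO replicate 1 (0.10), LLC KO replicate 2 (0.059) or LLC WT replicate 2 (0.055). *Itgb5*, *Itgb2* and *Itgam* were not called, with adjusted p of 0.11 to 0.42.

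**Figure D4:**
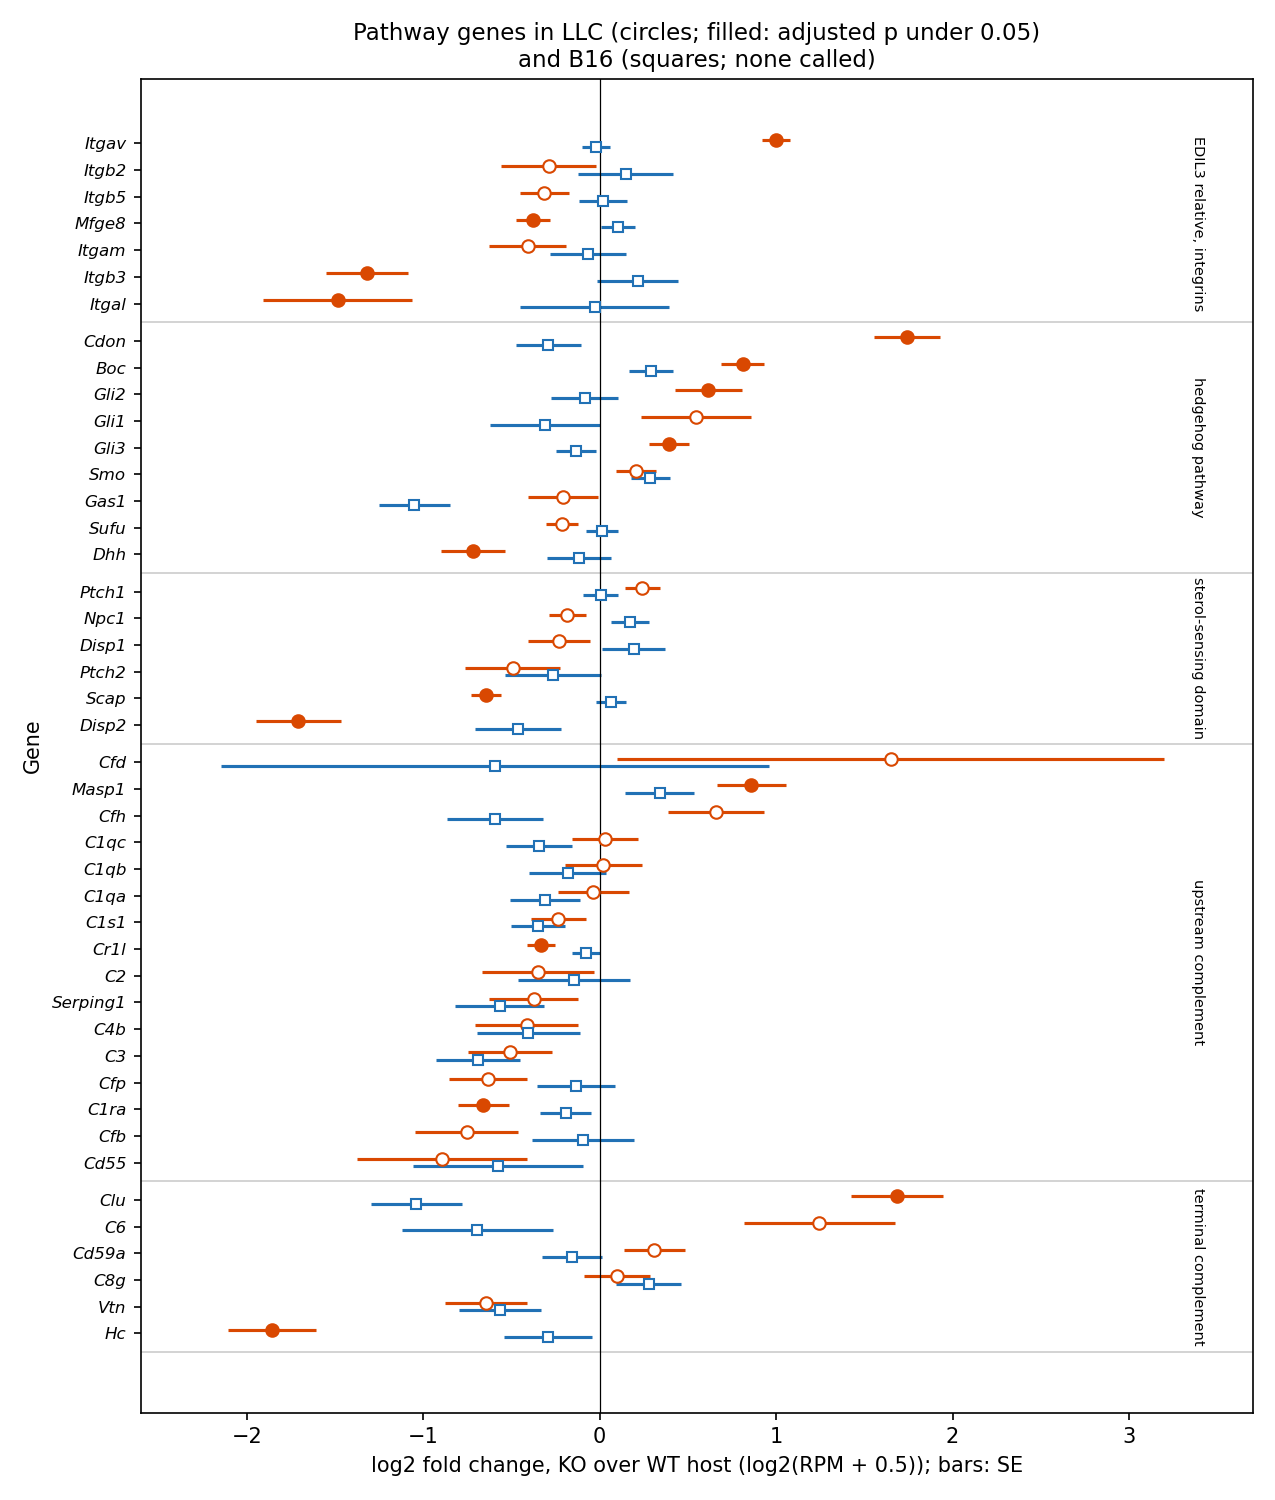
Difference of KO over WT host (log2(RPM + 0.5), bars are SE) of pathway genes tested, in LLC (orange circles, filled where the adjusted p is under 0.05) and B16 (blue squares). Clu and Cdon are the highest of the genes called in LLC and Hc and Disp2 the lowest, and no gene is called in B16.

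The difference between the LLC and B16 host effects was tested for these genes in the same model, and not for the members. It was called for 8 of the 45. The LLC effect was higher for 3 (*Clu*, *Cdon* and *Itgav*), against 8.15% of all genes tested. It was lower for 5 (*Hc*, *Itgb3*, *Disp2*, *Scap* and *Mfge8*), against 7.05%. In B16, *Hc* and *Disp2* were at 0.50 RPM or less, so that a fall there could hardly be seen. *Clu* had the widest difference, 2.72 on the log2 scale (SE 0.36, adjusted p = 0.0075, limma), with B16 at 14.4 and 7.35 RPM for WT hosts and 5.00 and 4.55 RPM for KO hosts. The higher of these values belongs to B16 WT replicate 1, the library with skeletal muscle markers, without which the difference was 2.26 (adjusted p = 0.013). The calls of *Clu*, *Cdon* and *Itgav* held under all 16 alternatives with both tumors in the model. Without B16 WT replicate 1 those of *Hc*, *Itgb3*, *Disp2* and *Mfge8* were lost (adjusted p of 0.087 to 0.16), and each of these was also lost without other single libraries, as was that of *Scap* without B16 KO replicate 1, B16 WT replicate 2 or LLC KO replicate 2 (0.054 to 0.062).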

How the data were processed

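The authors made TruSeq libraries (a kit that does not mark strand), sequenced 100 bases from both ends, and used Trimmomatic for trimming, STAR for alignment to the mouse build GRCm38.p4 (mm10) and HTSeq for counts by Ensembl gene, in versions not given in the sources used here. What was deposited is a score, since the authors brought the counts of every library to a total of 20 M and kept whole numbers. They compared groups with EdgeR on Degust.

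Values were divided by 20 to give RPM. Depth was estimated from the spacing of low values. The LLC WT columns were taken as rounded up because their totals exceed 20 M by 10823 and 11006, and their spacing also fitted this better. Reads printed for a gene come from this estimate of depth, which was tested on simulated data. None of the simulated depths was near 20 M, where LLC KO replicate 1 lies (20.1 M). For that library both ways of rounding fitted equally well. Since the scores are not counts, no count model was used. Genes that reached 1 RPM in 2 or more of the 8 libraries were tested with limma 3.58.1 (R 4.3.3) on log2(RPM + 0.5), with a mean-variance trend, 1 model of the 4 groups and Benjamini-Hochberg adjustment over all genes tested. A call is an adjusted p under 0.05. The members, lists, motifs and tests were chosen with earlier results of these data known. The LLC contrast chose the members and was not tested for them. Named were the members, the called genes of each list or up to 4 with the smallest adjusted p, the 3 nearest tested genes on each side, the 5 most similar genes, and the genes next to each member in the LLC ranking. Some genes that this rule names are not reported here, though they are in the counts. Marker lists were summed per library. Positions and coding bases come from GENCODE M21 (98.9% of gene IDs matched) and promoters from RefSeq (GRCm38.p6). Alternatives were other pseudocounts, filters and scalings, each tumor fitted alone, a replicate block, robust moderation and each library left out. Applying them to the difference between tumors was chosen after seeing the data. Replicates are pools that nothing says came from separate experiments, so that p-values measure the spread between these pools.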

Additional observations from a re-analysis of the deposited data

Results flagged for a closer look

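A closer look is due for 8 of the 45 pathway genes tested, 3 with a higher and 5 with a lower LLC effect. Their host effect differed between LLC and B16 by the test of the difference itself. This was a contrast of the limma model with an adjusted p under 0.05. The same test called 8.15% of all genes tested higher and 7.05% lower, so the count is near the share of all genes. The LLC effect minus the B16 effect on the log2 scale was 2.72 for *Clu* (adjusted p = 0.0075), 2.03 for *Cdon* (0.0068) and 1.02 for *Itgav* (0.0042). It was -1.56 for *Hc* (adjusted p = 0.029), -1.53 for *Itgb3* (0.025), -1.24 for *Disp2* (0.049), -0.71 for *Scap* (0.014) and -0.48 for *Mfge8* (0.0496). *Hc* was at or under the level of 3 reads in both LLC KO libraries, so that its value depends on the pseudocount. In B16, *Hc* was at 0 to 0.25 RPM and *Disp2* at 0.10 to 0.50 RPM, so that a fall there could hardly be seen. With a pseudocount of 0.05 RPM the difference of *Disp2* was -0.58 (adjusted p = 0.47, limma). The calls of *Hc*, *Itgb3*, *Disp2* and *Mfge8* were each lost under 7 to 11 of the alternatives and that of *Scap* under 3.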

How the results depend on the processing

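The direction of *C7*, *Ptchd1* and *Edil3* in LLC was the same under all 17 alternatives. This direction chose the members, so that is no further support. Filters, a replicate block, robust moderation, separate fits and B16 libraries left out cannot alter these differences. Their size moved clearly with the pseudocount alone: the differences were 5.83, 5.41 and 3.75 with 0.05 RPM and 2.47, 2.40 and 2.96 with 2 RPM. *Edil3* in B16 was called under none and ranged from -0.0078 to 0.71 with libraries left out. With a replicate block it was 0.35 (adjusted p = 0.60), and 2301 genes were called higher and 3704 lower in LLC, against 2226 and 3402 without it. Deviations of same-numbered libraries correlated at -0.030 between LLC WT and LLC KO, so the numbers were not treated as pairs. With each tumor fitted alone, 1066 genes were called higher and 1104 lower in LLC, and 3 pathway genes lower instead of 10. Calls lost in that fit were those of *Boc* and *Rasa1* (adjusted p = 0.054 for both), *Itgb3* (0.056), *Card6* (0.053), *Gli2* (0.063), *Dhh* (0.064), *Cr1l* (0.065), *C1ra* (0.069), *Mfge8* (0.071), *Gli3* (0.11), *Sms* (0.11) and *Itgal* (0.12). With no filter *Card6*, *Gli2*, *Gli3*, *Itgal* and *Sms* were not called (0.071 to 0.089), nor was *Gli2* with a pseudocount of 0.05 RPM (0.17). With libraries left out, 1160 to 2472 genes were called higher and 1521 to 3181 lower in LLC, 6 to 13 pathway genes lower in LLC, 0 to 11 genes lower in B16 (11 without B16 WT replicate 2) and 0 to 1 pathway gene lower in B16. Leaving out a library leaves its group with 1, assumed to vary like the others. The causes were not tested. With the other way of rounding, the depth came to 20.3 to 31.9 M for B16, 22.9 M for LLC WT replicate 2 and 29.5 M for LLC KO replicate 2. Levels near 3 reads carry a few reads each, which limits *C7* and *Ptchd1* outside LLC KO.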
